A study of Mus musculus with 3 samples.

Results

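The genes described here are the 37 genes of the mouse mitochondrial genome (chrM), taken as every chrM gene among the 50600 genes of the count tables and grouped by annotated strand and RNA class. The minus strand carries 9 of them, the mRNA gene mt-Nd6 and 8 tRNA genes. The plus strand carries 28, which are 12 mRNA genes, 2 rRNA genes and 14 tRNA genes. Their identifiers, positions and strands are the same in GENCODE vM21, from which the symbols were taken, for all 37. Counts per base are counts divided by the gene length that the tables give, and CPM scale a gene's counts to the same library total.

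The samples are 3 RNA libraries of Th1 cells, the helper T cells known for secreting interferon-gamma, labelled as primary cells of the C57BL/6NJ mouse strain and as biological replicates 1, 2 and 3. They form 1 group with no treatment named in the labels, and their file headers add a time point of 2 hours. The labels give sex, age and stage as not collected or unknown, and the same donor entry for all 3 libraries, so p-values refer to the spread between these 3 samples, part of which may be technical. Total counts were 4442901, 3123869 and 2950658 in replicates 1, 2 and 3. All 8 T cell markers examined reached 1 TPM (counts per base, scaled to the same sum in each library) throughout, with list medians from 96.9 to 262 TPM. Among them, Cd3e has exons that overlap Gm48719 of the other strand. Of the Th1 markers, Ifng had 1, 2 and 0 counts and Tbx21 had 19, 7 and 11. Stat4 averaged 15.9 TPM and Il12rb2, whose exons overlap Serbp1 of the other strand, 11.9 TPM, and Cxcr3 had 6, 2 and 2 counts. Markers of other cells were mixed. The NK, erythroid and platelet markers had no count, as had Lyz2, S100a9, Flt3, Itgax and 3 of 4 B cell markers. Csf1r of macrophages stood at 158 ± 25.3 TPM (SD, n = 3), with exons that overlap Hmgxb3 of the other strand, and the B cell gene Cd79a at 36.4 ± 11.1. Cd68, Cd8b1 and Prf1 averaged 7.23, 6.73 and 9.34 TPM, while Cd8a had 2, 1 and 0 counts and H2-Ab1 had 5, 1 and 2. In bulk libraries such as these, fewer cells of a type and less RNA per cell cannot be told apart.

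The mitochondrial genome is a small circle that encodes core subunits of the respiratory chain and the rRNAs and tRNAs needed to translate them. Each of its strands is transcribed into long RNAs that span many genes. The tRNAs lie between most of the mRNAs and rRNAs, and their excision at both ends frees the RNAs that flank them. T cells raise mitochondrial gene expression and respiration after activation.

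The strand to which these counts belong has a limit that applies to every count and level here, those of the cell markers above included. Per the file headers, pairs were counted with strand setting 1, which assigns a pair by requiring read 1 to match the annotated strand of the gene. The strand convention of the library kit is not given in the sources used here. With a kit whose first read is complementary to the RNA, the count of a gene would come from RNA of the other strand at the same position. Whether the counts of a gene come from its own RNA or from RNA opposite to it was not tested. The nuclear genes Slirp, Fastk and Csf1r, with means of 730, 188 and 158 TPM, have exons that overlap a gene of the other strand. Trac and Lck, with means of 897 and 404 TPM, have no such overlap.

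The sequences of 5 tRNA genes show the length and composition of the units compared, and are given as GENCODE vM21 prints them on mm10, read along each gene's own strand. The first 3 are the minus-strand tRNA genes with the most counts, for proline, glutamate and glutamine. The others are the plus-strand tRNA gene with the most counts, mt-Ts2 for serine, and mt-Tf for phenylalanine, which had none. Capitals in mt-Tq mark the 3 bases that it shares with mt-Ti of the other strand.
mt-Tp (chrM:15356-15422, minus): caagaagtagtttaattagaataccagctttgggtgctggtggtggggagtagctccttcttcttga
mt-Te (chrM:14071-14139, minus): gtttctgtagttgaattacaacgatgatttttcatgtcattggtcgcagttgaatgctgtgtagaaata
mt-Tq (chrM:3772-3842, minus): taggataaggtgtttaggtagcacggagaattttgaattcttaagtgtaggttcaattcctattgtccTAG
mt-Ts2 (chrM:11613-11671, plus): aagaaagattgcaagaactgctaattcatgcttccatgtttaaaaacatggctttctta
mt-Tf (chrM:1-68, plus): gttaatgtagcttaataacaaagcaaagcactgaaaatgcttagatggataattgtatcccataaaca

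The strands differ in base composition, which the choice of genes did not use. mt-Nd6 held 28.1% G and 5.97% C on its own strand, while the 12 plus-strand mRNA genes held a median of 11.02% G and 26.0% C. The skew (G minus C over G plus C) was above 0 in all 9 minus-strand genes and below 0 in 23 of 28 plus-strand genes. The plus-strand exceptions were tRNA genes, mt-Tf, mt-Ti and mt-Tr above 0 and mt-Tk and mt-Tl2 at 0.

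Mitochondrial genes made up 1.66%, 1.51% and 1.57% of all counts in replicates 1, 2 and 3, with a mean share of 1.58% ± 0.0726 (SD, n = 3). No 95% exact Clopper-Pearson interval of these shares had a half-width above 0.0143 percentage points, and such intervals and floors cover counting error only. The division between the strands varied more than the total. Minus-strand genes took 44.9%, 50.8% and 70.7% of the chrM counts in replicates 1, 2 and 3, and plus-strand genes took 55.1%, 49.2% and 29.3%. Minus-strand genes span 1068 bases, against 14373 bases of plus-strand genes. By class, mRNA genes held 95.5% ± 0.709 of the chrM counts. The tRNA genes had 1291, 1359 and 996 counts and the rRNA genes 2234, 988 and 702.

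mt-Nd6, a complex I subunit and the only mRNA gene of the minus strand (chrM:13552-14070), had the highest level of all 37 genes per base. It had 31858, 22709 and 31808 counts in replicates 1, 2 and 3, or 61.4, 43.8 and 61.3 counts per base. The highest plus-strand gene in each library was mt-Co1, the catalytic subunit of complex IV, with 9.02, 3.94 and 2.98 counts per base. The levels of mt-Nd6 and of every plus-strand gene did not overlap, and mt-Nd6 exceeded mt-Co1 6.8-fold, 11.1-fold and 20.6-fold per base. In the order of mean counts per base, mt-Nd6 was followed by mt-Tp, mt-Co1, mt-Tq and mt-Cytb, and from mt-Tp downwards each gene overlapped the next in its range over the libraries.

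**Figure D1:**
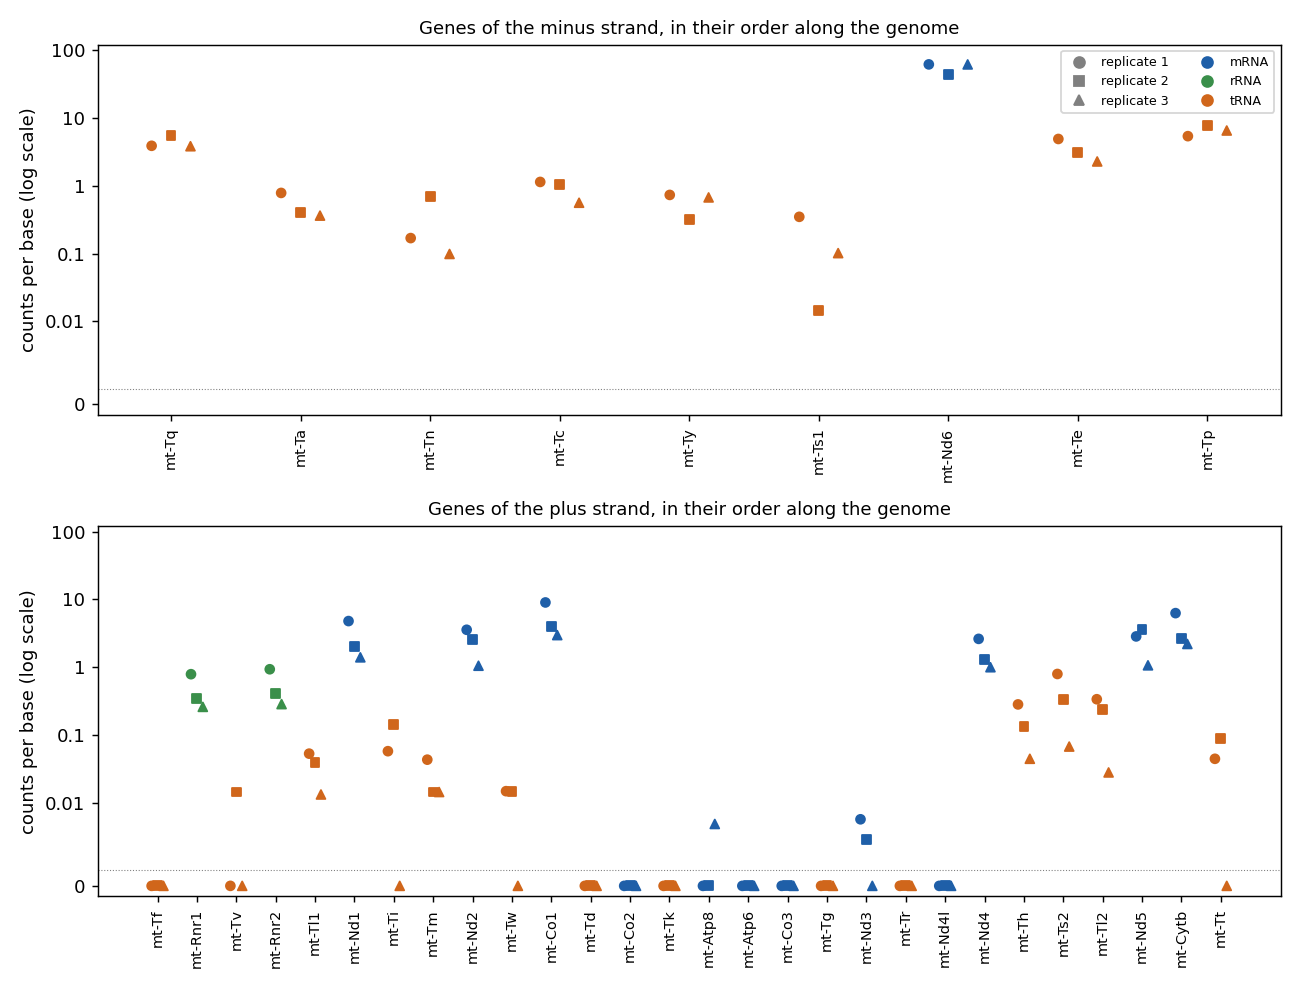
Counts per base (log scale, with 0 drawn below the grey line) of the 9 minus-strand genes in the upper panel and the 28 plus-strand genes in the lower panel, in their order along the genome, with 1 symbol per library and colours for RNA class. mt-Nd6 stands at 43.8 to 61.4 counts per base, and a run of plus-strand genes from mt-Td to mt-Nd4l stands at or near 0.

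Summed over mRNA genes, the minus strand, here mt-Nd6 alone, lay above the plus strand in every library. The minus strand had 61.4, 43.8 and 61.3 counts per base in replicates 1, 2 and 3, and the plus strand had 3.51, 2.04 and 1.18 counts per base. The log2 ratio of minus over plus was 4.13, 4.42 and 5.69, a mean of 4.75 ± 0.83 (SD, n = 3). An exact two-sided sign-flip permutation test gave p = 0.25, the smallest that 3 libraries allow, and 0.25 after Benjamini-Hochberg adjustment over 3 ratios. Per base, the excess was 17.5-fold, 21.5-fold and 51.8-fold, highest in replicate 3. The plus-strand length includes 6 genes at or under 3 counts in every library, described below, whose RNA has no upper limit here. Among mRNA genes with at least 10 counts over the 3 libraries the log2 ratio was 4.28.

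Among tRNA genes the minus strand also lay above the plus strand in every library. The 8 minus-strand tRNA genes had 1186, 1291 and 985 counts, or 2.16, 2.35 and 1.79 counts per base. The 14 plus-strand tRNA genes had 105, 68 and 11 counts, or 0.11, 0.0714 and 0.0116 counts per base. The log2 ratio of minus over plus, with 0.5 count added to each sum, was 5.51 ± 1.52 (SD, n = 3), above 0 in 3 of 3 libraries. The same exact sign-flip test gave an adjusted p of 0.25. The ratio was again highest in replicate 3, where it rests on 11 plus-strand counts. Among tRNA genes with at least 10 counts over the 3 libraries the log2 ratio was 3.91.

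**Figure D2:**
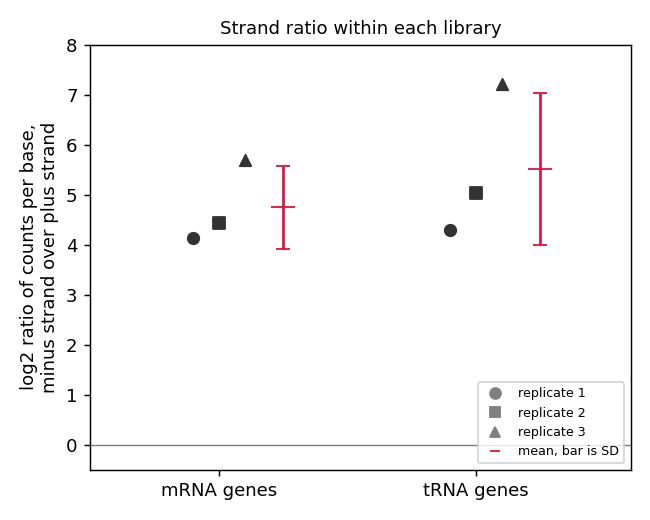
Log2 ratio of summed counts per base, minus strand over plus strand, for mRNA genes (left) and tRNA genes (right), with 1 symbol per library and the mean ± SD in red. All 6 values lie above 0, and replicate 3 is highest in both classes at 5.69 and 7.22.

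The strands differ in how closely their genes are packed. Of 28 plus-strand genes, 27 lie within 3 bases of another gene of their strand, and 22 of these adjoin or overlap one. On the minus strand, 6 of 9 genes lie within 3 bases of another gene of their strand, while mt-Tq, mt-Ts1 and mt-Tp lie more than 100 bases from the next gene of that strand. The command in the file headers holds no option for pairs that touch more than 1 gene, and the default of the tool leaves such pairs out. The number of pairs left out in this way was not tested. A pair is also counted for a tRNA gene that it overlaps only in part, so counts per base of tRNA genes and of mRNA genes are not on the same footing.

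Within the minus strand the tRNA genes fell into a high and a low group. mt-Tp had 360, 523 and 436 counts in replicates 1, 2 and 3, mt-Te had 337, 216 and 157, and mt-Tq had 275, 385 and 271. These 3 genes together held most minus-strand tRNA counts, with mean shares of 38.4% ± 7.20, 20.4% ± 6.99 and 26.8% ± 3.37 (SD, n = 3). mt-Ta, mt-Tn, mt-Tc and mt-Ty, the cluster for alanine, asparagine, cysteine and tyrosine around the origin of light-strand replication, had mean levels of 0.319 to 0.909 counts per base. mt-Tn in this cluster had 12, 49 and 7 counts, highest in replicate 2. mt-Ts1, for serine, was lowest on average with 24, 1 and 7 counts.

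mt-Te directly adjoins mt-Nd6 on the same strand. mt-Nd6 exceeded it 12.6-fold, 14.0-fold and 26.9-fold per base in replicates 1, 2 and 3. The limits given above on comparing tRNA genes with mRNA genes per base apply to these ratios. Across the strand from mt-Nd6, mt-Nd5, another complex I subunit, shares its last 14 bases with the last 14 bases of mt-Nd6, chrM:13552-13565. The last 40 bases of each gene are shown on its own strand, with the shared bases in capitals.
mt-Nd6 (chrM:13552-13591, minus): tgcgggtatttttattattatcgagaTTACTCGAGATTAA
mt-Nd5 (chrM:13526-13565, plus): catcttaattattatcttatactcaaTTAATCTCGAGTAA
mt-Nd5 had 5197, 6584 and 1948 counts, and mt-Nd6 exceeded it 21.5-fold, 12.1-fold and 57.4-fold per base. The other overlaps between strands are 3 bases each, of mt-Ti with mt-Tq and of mt-Co1 with mt-Ts1.

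The 12 plus-strand mRNA genes fell into a counted and an uncounted group. 6 of them had over 1000 counts in every library. mt-Co1 had 13937, 6092 and 4601 counts, mt-Cytb, of complex III, 7185, 3069 and 2522, and mt-Nd1, of complex I, 4591, 1952 and 1340. mt-Nd2, mt-Nd4 and mt-Nd5, all of complex I, completed the group. The other 6 were at or under 3 counts in every library. mt-Co2, mt-Co3, mt-Atp6 and mt-Nd4l had no count, mt-Atp8 had 0, 0 and 1, and mt-Nd3 had 2, 1 and 0.

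The uncounted mRNA genes lie in 1 stretch of the genome that has near-identical copies on chromosome 1. Annotated transcripts of 7 pseudogenes on the minus strand of chr1:24611535-24616197 aligned to chrM genes at 99% identity or more over at least 100 bases. The outermost of these alignments bound the stretch chrM:6390-11042. The copies lie in the same gene order and span 4663 bases from end to end, against 4653 on chrM. Gm28661, Gm10925, Gm28437 and Gm10222 matched mt-Co2, mt-Atp6, mt-Co3 and mt-Nd4l with 0 mismatches over 681, 678, 783 and 294 bases. Of the 11 chrM genes wholly inside the stretch, 8 had no count in any library, and the 11 together had 26, 2 and 8 counts. Of the 26 genes not wholly inside, with mt-Co1 and mt-Nd4 partly inside, 1 had no count, mt-Tf. The 3 genes with counts inside were mt-Ts1, mt-Nd3 and mt-Atp8. The tRNA genes inside were mt-Ts1, mt-Td, mt-Tk, mt-Tg and mt-Tr, and the sequences between the annotated copies were not used here.

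The copies themselves were also nearly without counts, with 1 exception. Gm28661 and Gm10925 had none, and Gm28437, Gm10222, Gm28439 and Gm29216 had at most 2 in any library. The command in the file headers sets no option to count pairs that align to several places, and the default of the tool leaves them out where the alignments mark them. The number of such pairs was not tested. The counts of 0 set no upper limit on the RNA of these genes or their copies.

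**Figure D3:**
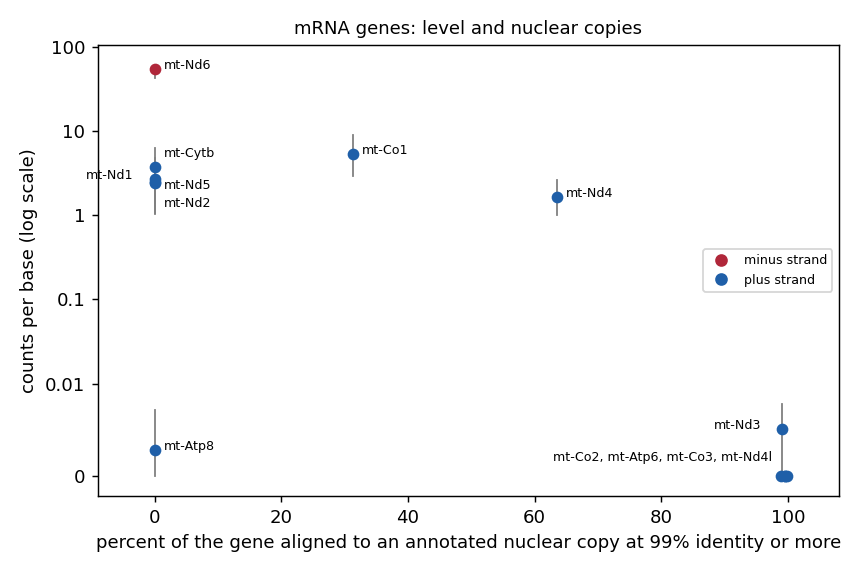
Counts per base (log scale, with 0 at the foot) of the 13 mRNA genes against the percent of the gene aligned to an annotated nuclear copy at 99% identity or more, with points for the mean and lines for the range over the 3 libraries. The 5 genes covered over nearly their whole length stand at or near 0. mt-Atp8, which lies between copied genes, does so too, although no annotated copy of 100 bases matched it.

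The exception was Gm28438, the copy of mt-Nd3, a complex I subunit. mt-Nd3 had 2, 1 and 0 counts, against 101, 146 and 6 for Gm28438 in replicates 1, 2 and 3. No exon of the other strand overlaps Gm28438. The copy aligned to mt-Nd3 over 345 bases with a single substitution, T3C, counted from 1 at the first base of the gene, where mt-Nd3 has the first base named and Gm28438 the last. The first 30 bases of each are shown with that base in capitals.
mt-Nd3 (chrM:9459-9488, plus): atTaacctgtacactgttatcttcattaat
Gm28438 (chr1:24613090-24613119, minus): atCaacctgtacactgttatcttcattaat
The labels name the strain C57BL/6NJ, while the reference table names C57BL/6J as the strain of the assembly. The tables hold no read sequences, so the base that these pairs carried was not tested.

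mt-Nd4 and mt-Co1 are covered in part, and their levels depend on which bases are divided by. Gm28439 matched the first 876 of 1378 bases of mt-Nd4 with 0 mismatches, and Gm29216 matched the last 483 of 1545 bases of mt-Co1 with 1. Per base of the whole gene, mt-Nd4 had 2.62, 1.32 and 1.00 counts, the lowest of the 6 counted plus-strand mRNA genes in every library. Per base outside the copy it had 7.20, 3.61 and 2.75 counts, above mt-Cytb at 6.28, 2.68 and 2.20, a rank that this choice of length, made after the counts had been seen, sets. mt-Co1 had 13.1, 5.74 and 4.33 counts per base outside the copy and stayed highest of the plus strand. With these lengths the log2 strand ratio of mRNA genes was 4.06.

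The 2 rRNA genes, for the small and large subunits of the mitochondrial ribosome, had low levels for their length. mt-Rnr1 had 755, 332 and 249 counts and mt-Rnr2 had 1479, 656 and 453. The log2 ratio of mt-Rnr2 over mt-Rnr1 per base was 0.21 ± 0.07 (SD, n = 3), above 0 in 3 of 3 libraries. The exact sign-flip test gave an adjusted p of 0.25. mt-Nd1, which is separated from mt-Rnr2 by the tRNA gene mt-Tl1, exceeded mt-Rnr2 5.13-fold, 4.92-fold and 4.89-fold per base, a ratio that varied little between the libraries. The labels give total RNA, while the title of the linked protocol names poly(A)+ RNA, a selection that leaves out most rRNA, and which of them applied to these libraries was not tested.

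Of the 14 plus-strand tRNA genes, 5 had no count and 8 were at or under 3 counts in every library, those 5 included. The highest were the neighbours mt-Ts2 with 47, 20 and 4 counts, mt-Tl2 for leucine with 24, 17 and 2, and mt-Th for histidine with 19, 9 and 3. These 3 genes lie side by side between mt-Nd4 and mt-Nd5. All 3 were lowest in replicate 3.

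The replicates differed in strand balance. In CPM, mt-Nd6 stood at 7171, 7270 and 10780 in replicates 1, 2 and 3, while all 6 counted plus-strand mRNA genes were lowest in replicate 3. mt-Co1 stood at 3137, 1950 and 1559 CPM and mt-Cytb at 1617, 982 and 855 CPM, both highest in replicate 1. mt-Nd5 and mt-Nd2 departed from this order and were highest in replicate 2, with mt-Nd5 at 1170, 2108 and 660 CPM. mt-Nd5 took 13.6%, 29.7% and 15.1% of the plus-strand mRNA counts. mt-Tp and mt-Tq were lowest in replicate 1, at 81.0 and 61.9 CPM. Depth and the T cell marker list were also highest in replicate 1, with list medians of 262, 96.9 and 126 TPM in replicates 1, 2 and 3, and their part in these differences was not tested.

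**Figure D4:**
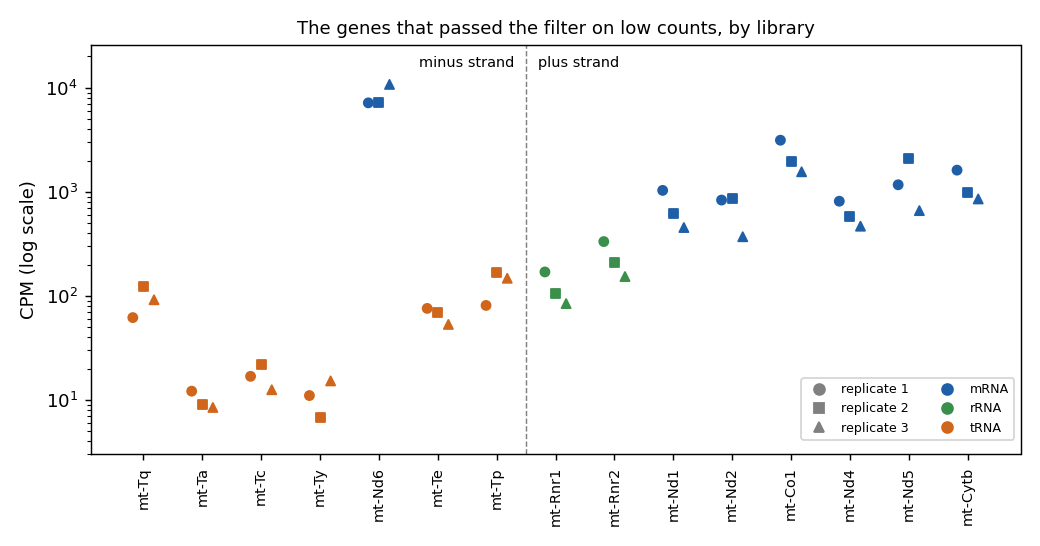
CPM (log scale) of the 15 chrM genes that passed the filter on low counts, minus-strand genes left and plus-strand genes right, with 1 symbol per library. mt-Nd6 is highest in replicate 3 at 10780 CPM, where the plus-strand mRNA genes are lowest, and mt-Nd5 is highest in replicate 2 at 2108 CPM.

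The difference in strand balance itself was not tested. The spread of each gene between the replicates was tested across all genes of the tables. Of these, 9469 passed a filter on low counts, 15 of the 37 chrM genes among them. The other 22 had too few counts to be tested. The replicates differed beyond counting noise in 14 of the 15 (chi-square test after edgeR's TMM scaling, Benjamini-Hochberg adjusted p under 0.05), where 59.6% of all genes tested passed. The exception was mt-Ta, with 54, 28 and 25 counts and an adjusted p of 0.898. mt-Nd6 and mt-Nd5 had the largest chi-square values of the 15, at 6878 and 3384, and these grow with depth.

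Set against the spread usual for genes of their level, no chrM gene passed with all 3 libraries. In edgeR's dispersion trend test 0 of 15 passed an adjusted p under 0.05, where 0.253% of all genes tested passed, and 2 of 15, mt-Nd5 and mt-Tp, had an unadjusted p under 0.05, where 6.44% of all genes tested did. DESeq2 marked 0 of the 15 as dispersion outliers, and 0.0422% of all genes tested. mt-Nd5 had an adjusted p of 0.565 with all 3 libraries and passed without replicate 1, with an adjusted p of 0.0305 in edgeR's trend test. Without replicate 1 it was 1 of 15 chrM genes tested, where 21 of 9677 genes passed.

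The counts assigned to nuclear genes that act on the mitochondrial genome were at moderate levels, under the limit on strand given above. Of a list of 34 genes of mitochondrial DNA upkeep, transcription and RNA processing, 33 were matched. At least 1 TPM was seen in all libraries for 29, where 38.7% of protein-coding genes did. The list median was 8.95 ± 2.34 TPM (SD, n = 3), against medians of 0.201 to 0.303 TPM over all protein-coding genes. Polrmt, the mitochondrial RNA polymerase, had 10.2, 2.84 and 7.17 TPM, and Tfam, its DNA-packaging activator, 14.0, 7.45 and 8.49. Tfb2m, which opens the promoter, had 7.66, 2.28 and 5.04 TPM, and Tefm, an elongation factor, 2.04, 2.38 and 0. Each of these 4 had its lowest value in replicate 2 or 3.

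Trmt10c, Hsd17b10 and Elac2, which take part in cutting out the tRNAs, were counted in every library. Prorp, also of mitochondrial RNase P, was the list gene that was not matched, so it has no values here. Trmt10c, a subunit of mitochondrial RNase P, which cuts the 5' end of tRNAs, had 52.1, 32.9 and 28.8 TPM. Hsd17b10, its partner, had 28.2, 5.34 and 9.98 TPM, and Elac2, which cuts the 3' end, 31.4, 12.7 and 20.7 TPM. Among RNA stability and decay factors, Lrpprc, which binds mitochondrial mRNAs, had 5.58 ± 2.58 TPM (SD, n = 3), and Supv3l1 and Pnpt1, helicase and nuclease of the degradosome, had 13.3 ± 6.80 and 20.4 ± 9.82. Slirp, the partner of Lrpprc, led the list at 730 ± 92.3 TPM, followed by Fastk at 188 ± 17.2 and Mgme1, a mitochondrial DNA exonuclease, at 64.9 ± 1.51. Exons of 13 of the 33 genes overlap exons of the other strand, Slirp, Fastk, Mgme1, Elac2 and Supv3l1 among them, so their counts are uncertain. Leaving those 13 aside, 16 of the other 20 had at least 1 TPM throughout, and for these too the strand of origin was not tested.

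Of 28 list genes tested, 14 passed the chi-square test of counting noise, where 59.6% of all genes did. In edgeR's trend test 0 of 28 passed, where 0.253% of all genes did, with 0 also at an unadjusted p under 0.05, where 6.44% did. In DESeq2, 0 of 28 were dispersion outliers, where 0.0422% of all genes were. The list median was highest in replicate 1, at 11.5, 6.88 and 8.49 TPM in replicates 1, 2 and 3, as was that of the T cell list.

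**Figure D5:**
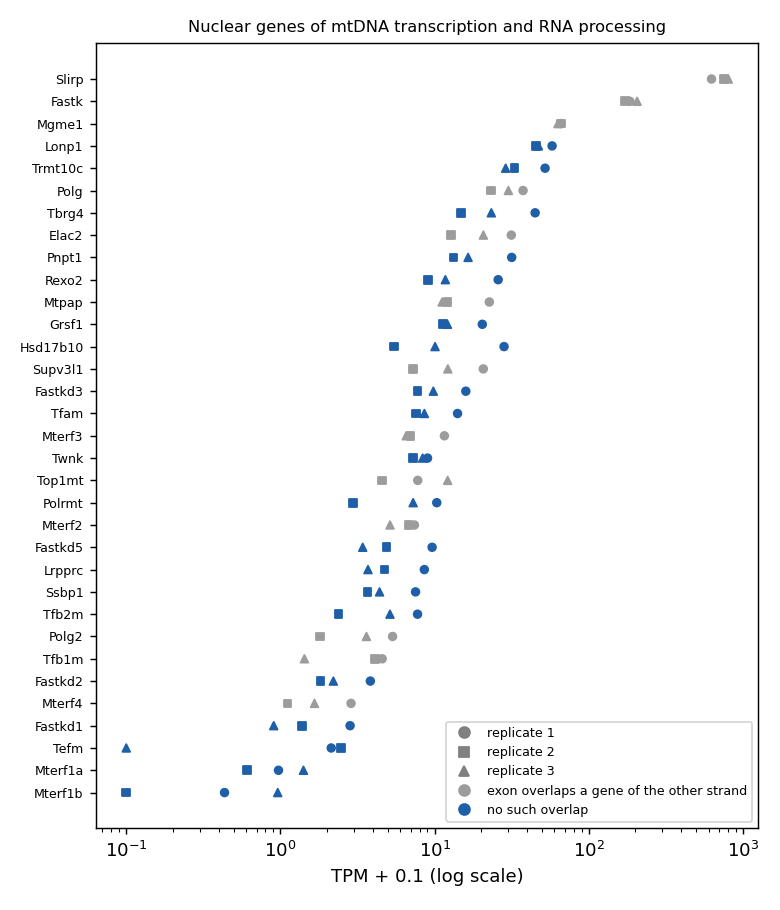
TPM + 0.1 (log scale) of the 33 matched nuclear genes of mitochondrial DNA upkeep, transcription and RNA processing, with 1 symbol per library and grey for genes whose exons overlap a gene of the other strand. The 3 highest genes, Slirp, Fastk and Mgme1, are grey, and Polrmt and Tfam lie between 2.84 and 14.0 TPM.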

How the data were processed

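Per the file headers, the authors counted read pairs over exons with featureCounts 1.4.6-p4 and GENCODE vM13 gene models on mm10, with both reads aligned and strand setting 1. The deposited values are raw counts. Total RNA-seq is the assay per the labels, yet the title of the linked protocol says poly(A)+ RNA. Gene lengths, another deposited column, are exon bases.

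From these, counts per base, CPM and TPM were computed here. Ratios used summed counts per base with 0.5 count added. Replicate spread was fitted over 9469 genes (filterByExpr, minimum count 10) with edgeR 4.0.16 (intercept-only, TMM) and DESeq2 1.42.0 under R 4.3.3, thresholds 0.05. The edgeR step was tested on data simulated at its own dispersion trend. How well it finds differences in the real counts was not tested. Nuclear copies were found with BLAST 2.17.0 in GENCODE vM21 transcripts, at 95% identity or more over at least 100 bases, and at 99% for near-identical copies. A count of 0 allows 0.675, 0.96 and 1.02 CPM (3 counts) of counted pairs in replicates 1, 2 and 3. This holds for genes without near-identical copies and outside the chrM stretch between such copies. All tRNA genes are shorter than 100 bases, so the search could not find copies of them, and whether the limit holds for them was not tested. All 37 chrM genes could be named, with nuclear genes taken from lists. The genes and lists were chosen with earlier results of these data known.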

Additional observations from a re-analysis of the deposited data

How the results depend on the processing

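The mRNA and tRNA strand ratios and the rRNA ratio kept their sign under every alternative that gave a value, and no sign-flip p could fall under 0.25. The log2 mRNA ratio ranged from 4.06 (lengths outside near-identical copies, chosen after seeing the data) to 6.18 (medians of genes), and the tRNA ratio from 3.91 to 5.54. Leaving out 1 replicate gave 4.28 to 5.06 for mRNA genes, 4.66 to 6.12 for tRNA genes, 0.19 to 0.25 for the rRNA ratio (0.94 from counts without length correction) and 1.54% to 1.61% for the chrM share. The median tRNA ratio could not be formed, since the plus-strand median was 0 in replicate 3. The chrM share was 2.18% when only mRNA and protein-coding genes were counted, against 1.58% of all counts, and these are shares of different totals. The number of chrM genes beyond the dispersion trend was 0 to 1 with 1 replicate left out, the 1 being mt-Nd5 without replicate 1. Over all genes that count was 24, against 6 with library totals and 44 without the filter. It was 21 without replicate 1, 3 without replicate 2 and 8 without replicate 3. Genes beyond counting noise numbered 5642 over all genes, against 2476 without replicate 1. Of chrM genes, 13 of 15 passed without replicate 1, 12 of 15 without replicate 2 (4299 of 10139 over all genes), 12 of 19 without replicate 3 (4816 of 10185) and 18 of 28 with no filter (6816 of 19067). Of 90 single-gene alternatives 83 kept their side of the threshold and 7 did not, for mt-Tc, mt-Ty, mt-Nd4, mt-Te and mt-Tp, the cause of which was not tested. No paired analysis was possible because the series has 1 group. Of the 14 genes at or under 3 counts in every library, 10 lie in the stretch between the outermost near-identical copies, where a count of 0 sets no limit. Among them, mt-Atp8 matched no annotated near-identical copy. The tRNA genes mt-Td, mt-Tk, mt-Tg and mt-Tr could not match, since all tRNA genes are shorter than the 100 bases that the search required. The sequences between the copies were not tested. Depth, and pairs left out for touching more than 1 gene, limit what can be said of the other 4.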

Other observations

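The annotated 3' ends of the mRNA genes differed. mt-Co3, mt-Nd4 and mt-Cytb, all on the plus strand, have lengths that leave 1 base over after the last whole codon, a T, as is known for mitochondrial mRNAs whose stop codon is completed by the poly(A) tail. mt-Nd6 and 7 plus-strand mRNA genes end in TAA, and mt-Nd1 and mt-Nd2 end in TAG. mt-Cytb and mt-Nd4, with such an incomplete end, were among the counted genes, and mt-Co3 had no count.

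More distant nuclear copies also had few counts. Gm13339, Gm13340 and Gm13341 on chromosome 2 aligned to mt-Nd2, mt-Co1 and mt-Co2 at 96.7%, 97.6% and 95.9% identity, and Gm4076 on chromosome 13 to mt-Nd5 at 95.2%. Gm13340 had 4, 0 and 1 counts, Gm13341 had 2, 0 and 0, and Gm13339 and Gm4076 had none. mt-Nd2, mt-Co1 and mt-Nd5 were counted in every library.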
